A study of Mus musculus with 3 samples.

Results

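The nuclei described here were chosen from 3 single-nucleus RNA libraries of mouse hippocampus by 4 marker genes, Fn1, Nts, Tshz2 and Vwc2l, which are used as markers of the subiculum. A nucleus was selected when it had at least 500 genes, at least 1 UMI (a counted RNA molecule) of Slc17a7 or Slc17a6, at least 2 of the 4 marker genes detected, a sum over these 4 of at least 5 per 10000 UMIs, and at most 1 per 10000 of Gad1 plus Gad2, of Prox1 and of Foxp2. The rule selected 1118 of 26480 nuclei, which is 4.22%. The rule reads measured values, so the levels of its genes are given as a description. They stay in the fits below, but no test of them is read and they are left out of the counts over gene lists.

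Each library came from 1 adult female mouse of genotype Scn8aD/+, which carries 1 copy of the D allele of Scn8a, a voltage-gated sodium channel gene, in every cell. The 3 mice were taken after seizure onset. Each mouse is its own batch, and the effect of batch cannot be told apart from that of the mouse. Mice without the allele or from before onset are not analysed here. Nuclei of both hippocampi of a mouse were stained with propidium iodide and sorted before 10x 3' profiling, and the 3 libraries are the replicates of every comparison below.

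The subiculum lies between CA1 and the entorhinal cortex and is a main output of the hippocampus. Its principal neurons are glutamatergic, fire in bursts or regularly, and send axons to the entorhinal and retrosplenial cortex, the thalamus, the mammillary bodies and the ventral striatum. Fn1 and Nts are used as markers of subregions of the subiculum. Tshz2 and Vwc2l also mark the near-projecting neurons of the deep cortical layers, a type found in the isocortex as well as in the subicular region, so the marker genes alone do not place a nucleus inside the subiculum.

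The promoters of 3 genes are shown because 2 of them, Tshz2 and Vwc2l, supply most of the UMIs by which nuclei were selected, and the other, Npsr1, had the largest difference from the other glutamatergic nuclei under the naming rule. Each runs 5′ to 3′ from 250 bases before to 50 bases after the RefSeq start on build GRCm38.p6. Capitals mark matches on either strand to the TATA box TATAAA, the E-box CANNTG (N is any base) or the cAMP response element TGACGTCA. Of 32851 RefSeq promoters of this length, 13.6% held the TATA box letters, 72.3% the E-box letters and 1.79% the cAMP response element letters. The Tshz2 window is chr2:169632259-169632558 on the plus strand and holds none of the 3 motifs. The Vwc2l window is chr1:70725465-70725764 on the plus strand and holds 1 TATA box match and 5 E-box matches. The Npsr1 window is chr9:24097768-24098067 on the plus strand and holds 2 E-box matches. A match is a description of letters and names no binding site. On GRCm38 the Tshz2 gene spans chr2:169633013-170071816 (plus strand), Vwc2l chr1:70725715-70885397 (plus), Fn1 chr1:71585520-71653200 (minus), Nts chr10:102481756-102490486 (minus) and Npsr1 chr9:24097996-24316398 (plus).
Tshz2: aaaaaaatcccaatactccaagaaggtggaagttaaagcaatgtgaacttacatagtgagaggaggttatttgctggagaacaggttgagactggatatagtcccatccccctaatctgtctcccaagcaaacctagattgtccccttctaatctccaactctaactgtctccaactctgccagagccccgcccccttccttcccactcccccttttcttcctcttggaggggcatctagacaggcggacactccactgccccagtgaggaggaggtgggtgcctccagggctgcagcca
Vwc2l: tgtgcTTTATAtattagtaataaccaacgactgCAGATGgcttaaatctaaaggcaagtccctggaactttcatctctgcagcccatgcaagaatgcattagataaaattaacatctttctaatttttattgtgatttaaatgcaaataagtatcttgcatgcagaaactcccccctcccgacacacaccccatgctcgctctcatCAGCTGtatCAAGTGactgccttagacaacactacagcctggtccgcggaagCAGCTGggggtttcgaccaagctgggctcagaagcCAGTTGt
Npsr1: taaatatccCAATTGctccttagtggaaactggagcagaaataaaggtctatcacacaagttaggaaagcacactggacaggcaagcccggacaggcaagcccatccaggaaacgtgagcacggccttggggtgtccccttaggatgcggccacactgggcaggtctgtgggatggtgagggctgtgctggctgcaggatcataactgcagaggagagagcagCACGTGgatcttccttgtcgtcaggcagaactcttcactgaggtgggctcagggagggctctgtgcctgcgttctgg

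The share of selected nuclei differed between the libraries. They were 502 of 8621 nuclei in mouse 1, which is 5.82% (exact 95% interval 5.34 to 6.34), 240 of 13201 in mouse 2, which is 1.82% (1.60 to 2.06), and 376 of 4658 in mouse 3, which is 8.07% (7.31 to 8.89). The mean was 5.24% ± 3.17 (SD, n = 3). Of the glutamatergic nuclei they made up 14.5%, 9.14% and 23.2%. Depth ran in the same order: the selected nuclei had medians of 15368.5, 3716.5 and 31955.5 UMIs, and all nuclei had medians of 9146, 1813 and 25782. The part of depth, dissection and sorting in these shares was not tested, and the intervals cover counting error only.

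Tshz2, which encodes a zinc finger transcription factor, carried the selection. It was detected in 99.4%, 99.2% and 100% of the selected nuclei of mice 1, 2 and 3, and it gave the most UMIs of the 4 genes in 452, 200 and 334 of them. Vwc2l, which encodes a secreted protein with a von Willebrand factor C domain, was detected in 75.5%, 72.1% and 80.1%. Fn1, which encodes the matrix protein fibronectin, was detected in 43.4%, 32.5% and 43.4%. Nts, which encodes the neuropeptide neurotensin, was detected in 9.96%, 6.67% and 11.2%. Most selected nuclei were thus Tshz2 nuclei with Vwc2l or Fn1 beside it, and few carried Nts. After each nucleus was thinned to 1000 UMIs (8 selected nuclei of mouse 2 and 1 of mouse 1 were too shallow), Tshz2 was present in 76.6%, 65.5% and 80.9% of the selected nuclei. In oligodendrocytes, which should lack the gene, the thinned share was 3.25%, 5.83% and 3.23%. Before thinning, those oligodendrocytes had medians of 2923.5, 1598 and 6194 UMIs, below the selected nuclei of the same mouse. For Nts the thinned shares were 0.599%, 1.72% and 0.532%, against 0.181%, 0.182% and 0.179% in oligodendrocytes, so single nuclei say little about Nts at that depth.

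Summed over the selected nuclei of a mouse and scaled to CPM (UMIs per 1000000 UMIs of the class), Tshz2 stood at 1648, 1703 and 1949 in mice 1, 2 and 3, and at 135, 121 and 204 in the other glutamatergic nuclei. Vwc2l stood at 481, 496 and 694, against 38.8, 37.3 and 75.1. Fn1 stood at 167, 169 and 165, against 5.27, 7.28 and 6.80. Nts stood at 8.31, 10.0 and 5.63, against 1.06, 0.444 and 1.35. Slc17a6, which encodes the vesicular glutamate transporter common in subcortical neurons and also found in the subiculum, stood at 55.4, 33.7 and 46.95, against 5.07, 4.33 and 4.96. All 5 were higher in the selected nuclei of every mouse. The rule asked for 2 of the first 4 genes and for their sum, so it raised them as a set without asking for each one. Slc17a7, the main cortical transporter and one of the 2 genes by which a nucleus counted as glutamatergic, stood at 179, 246 and 133, against 282, 327 and 175. The lowest sum of the 4 genes inside the rule was 5.39, 5.04 and 5.17 per 10000 UMIs, and the highest just outside it was 4.98, 4.85 and 4.88.

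**Figure D1:**
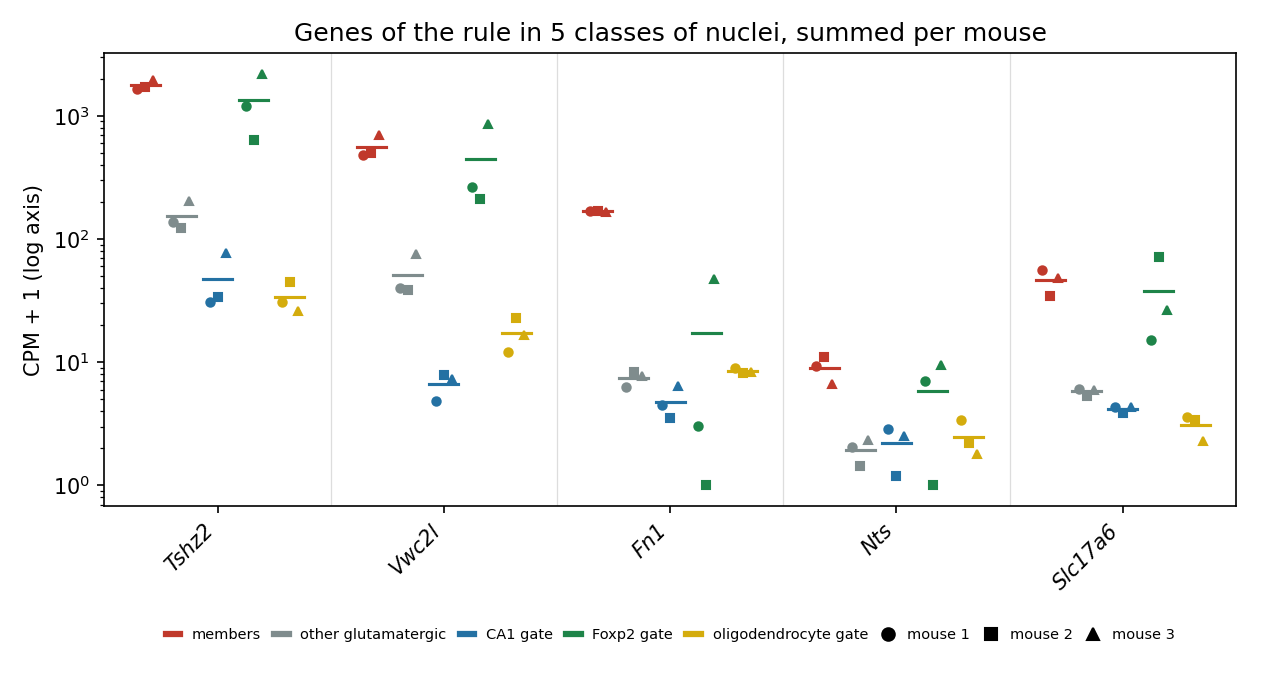
Levels of the 4 marker genes of the rule and Slc17a6 on a log axis of CPM + 1, for 5 classes of nuclei; each symbol is the sum over 1 mouse and each bar the mean over 3 mice. Tshz2 and Vwc2l are high in the selected nuclei (members) and in the small class chosen by Foxp2, while Fn1 is between 165 and 169 CPM in the selected nuclei of all 3 mice.

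The Foxp2 limit of the rule kept out some nuclei that also had Tshz2 and Vwc2l, and the rule was not run without that limit. Nuclei with Foxp2 at 5 or more per 10000 UMIs numbered 36, 9 and 20 in the 3 mice, and they had Tshz2 at 1206, 633 and 2199 CPM and Vwc2l at 262, 211 and 862 CPM. In mouse 3 both genes were higher there than in the selected nuclei. In mice 1 and 2 both were lower there, and 1 UMI is 70.3 CPM in the Foxp2 nuclei of mouse 2. Markers of near-projecting neurons outside the rule were mixed in the selected nuclei. Etv1, which encodes a transcription factor of deep-layer cortical neurons, stood at 256, 275 and 163 CPM, against 128, 85.7 and 50.5 in the other glutamatergic nuclei. Trhr, the receptor for thyrotropin-releasing hormone, stood at 11.5, 13.7 and 14.3 CPM, against 7.25, 6.67 and 7.29. Slc17a8 was at 0.109, 0 and 0.0722 CPM. Of the near-projecting list of 6 genes, 4 were higher in all 3 mice than in the other glutamatergic nuclei: Tshz2, Vwc2l, Etv1 and Trhr. Of Slc17a8 and Sla2, 1 was lower in all 3 mice and 1 was neither. The label of subicular nuclei thus rests on the genes of the rule, and subicular and cortical near-projecting nuclei cannot be told apart here, so the text calls them the selected nuclei.

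Markers of other cells were also read in the selected nuclei. The oligodendrocyte list of 5 genes summed to between 139 and 469 CPM, against 102 to 254 in the other glutamatergic nuclei, with 4 of 5 genes higher in all 3 mice and none at 0. Mog, a myelin gene, stood at 8.86, 23.7 and 3.47 CPM, against 3.21, 11.6 and 1.13. The other glutamatergic nuclei had a limit on glial genes and the selected nuclei had none, and 30, 70 and 15 selected nuclei were over that limit. Mog is itself on the list of that limit, so its call as higher (log2 1.26 ± 0.19) is a description and no test of it is read. With the limit set on both classes its log2 difference was -0.0899. The inhibitory list of 6 genes summed to 53.7, 211 and 83.8 CPM, against 59.2, 212 and 62.4. The layer 2/3 and retrosplenial list of 5 genes, which includes Cux2, summed to 184, 129 and 207 CPM, against 49.6, 42.5 and 54.7, with 4 genes higher in all 3 mice. The thalamic list of 5 genes summed to 739, 498 and 816 CPM, against 332, 244.5 and 315, with 3 genes higher in all 3 mice. Of the precursor list 3 of 4 genes, and of the microglia list 3 of 5, were higher in all 3 mice, at sums of 117 to 139 and 45.4 to 101 CPM, against 74.1 to 88.9 and 36.8 to 72.8. None of these lists had a gene at 0 in all mice, and their part in the results was not tested. Scrublet called 78, 20 and 22 of the selected nuclei doublets, and they were kept, and left out in an alternative. That is 15.5%, 8.33% and 5.85% of them, against 8.49%, 10.9% and 5.69% of all nuclei, so the share was higher among the selected nuclei of mouse 1. Barcodes shared between libraries numbered 36 for mice 1 and 2, 13 for mice 1 and 3, and 25 for mice 2 and 3.

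The first comparison set the selected nuclei beside the 6598 other glutamatergic nuclei of the same mice, with counts summed per mouse and mouse kept as a block in edgeR's quasi-likelihood fit. A gene is called at an adjusted p under 0.05 (Benjamini-Hochberg, over all genes) with a size of 1 or more on the log2 scale. Of 16241 genes, 729 were called higher, which is 4.49%, and 690 lower, which is 4.25%. Genes that go with Tshz2 among neurons had to differ once the nuclei were chosen by it. The adjusted p of a gene thus does not test whether the class exists. It weighs a difference against a spread over 3 mice that edgeR estimates partly from all genes. A gene can be called although 1 mouse goes the other way, as Lef1 was. Per gene the values below are CPM in mice 1, 2 and 3.

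The largest differences under the naming rule were in genes of varied function. Npsr1, the receptor for neuropeptide S, stood at 92.5, 78.0 and 71.1 in the selected nuclei and at 6.53, 7.28 and 6.18 in the other glutamatergic nuclei, a log2 fold change of 3.49 ± 0.13 (SE, edgeR adjusted p = 1.3e-05). Sgcz, which encodes a sarcoglycan, stood at 2971, 2575 and 3091, against 442, 330 and 446 (log2 2.73 ± 0.13). Both genes were separated in every mouse by several times the spread between mice. Pdzrn3, a ubiquitin ligase gene, stood at 392.3, 240 and 700, against 32.4, 19.3 and 118 (log2 3.14 ± 0.24). The other genes of this group were Tmem44, Sgpp2, Coro6, Adamts2, Cux2, Elfn1, Bmper, Vat1l and Grik1, with log2 fold changes from 2.77 (Grik1) to 3.42 (Tmem44). Adamts2, which encodes a procollagen protease, stood at 78.2, 73.2 and 89.5, against 7.39, 7.67 and 7.04. Elfn1, a postsynaptic adhesion gene, stood at 24.8, 30.0 and 22.1, against 2.22, 3.78 and 1.78. Among genes that were lower, Tspan18, a tetraspanin gene on the list of CA3 markers, had the largest difference, at 3.61, 9.48 and 1.66, against 22.3, 40.4 and 22.8 (log2 -3.02 ± 0.29). Cntnap5c, a contactin-associated gene, stood at 123, 172 and 111, against 578, 457 and 608 (log2 -2.16 ± 0.21).

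Transcription factor genes separated the selected nuclei in both directions. Of 38 tested on the list of regional factors, 10 were higher, 4 were lower and 24 were not called, beside 4.49% and 4.25% of all genes. The median log2 fold change was 0.21, beside -0.0048 over all genes. Cux2, best known from upper-layer cortical neurons, stood at 106, 74.3 and 119, against 8.93, 6.83 and 11.9 (log2 3.32 ± 0.12, edgeR adjusted p = 1.3e-05). Satb1, a chromatin organiser gene, stood at 192, 140 and 250, against 50.1, 42.3 and 40.4 (log2 2.00 ± 0.15). Tshz3, the relative of the rule gene Tshz2, stood at 210, 179 and 217, against 37.4, 26.6 and 56.8 (log2 2.26 ± 0.18). Tox stood at 546, 570 and 584, against 127, 103 and 154 (log2 2.06 ± 0.14). The 2 classes did not overlap in these 4 genes. They were named for large differences or after values were seen, and the like share of all genes was not counted. Zbtb20, which specifies the hippocampal pyramidal fields in development, was the factor with the largest fall, at 493, 892 and 281, against 2570, 2794 and 2061 (log2 -2.41 ± 0.24). Foxp1, also at high level, was not called (log2 -0.06 ± 0.13). Lef1 had the largest fitted value on the list but stood at 37.0, 0.527 and 20.9, against 0.918, 0.667 and 1.55, so mouse 2 did not share it.

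**Figure D2:**
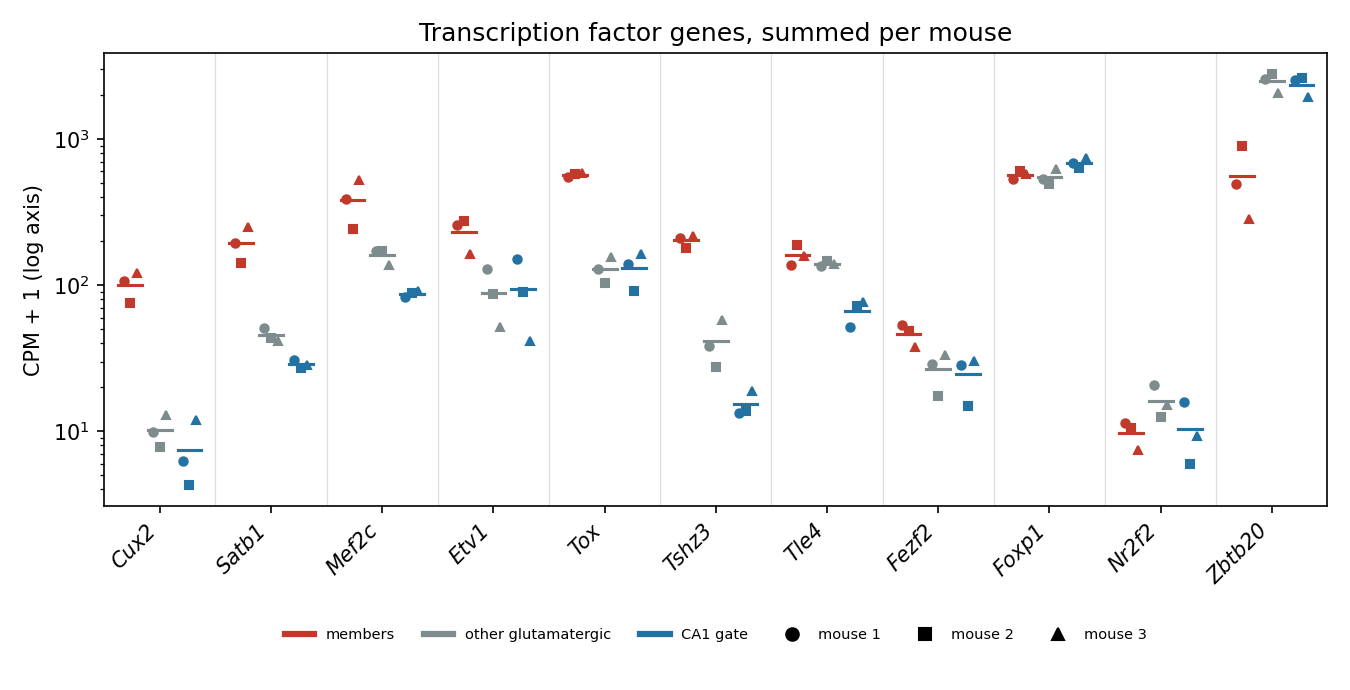
Levels of 11 transcription factor genes on a log axis of CPM + 1 in the selected nuclei (members), the other glutamatergic nuclei and CA1 nuclei; each symbol is 1 mouse and each bar the mean of 3. Cux2, Satb1, Tox and Tshz3 are higher in the selected nuclei of every mouse, and Zbtb20 is between 281 and 892 CPM there, below every value of the other 2 classes.

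Scn8a, the gene that carries the D allele, was not called. It stood at 380, 394 and 431, against 399, 389 and 439 (log2 -0.14 ± 0.10, edgeR adjusted p = 0.40), and the 2 classes overlapped. A 3' count does not separate the D allele from the other copy, so it is no check of genotype. Scn2a, the other large sodium channel gene, stood at 414, 336 and 331, against 389, 285 and 321 (log2 0.01 ± 0.11). Of 7 tested alpha subunit genes none was higher by edgeR or DESeq2 (0 also at an unadjusted p under 0.05) and 1 was lower, Scn7a, which encodes a sodium-sensing channel and stood near 1 CPM (mean 1.04 against 4.50). Of 12 sodium channel partner genes 1 was higher, the beta subunit gene Scn4b, at 4.05, 2.11 and 2.02, against 0.639, 0.167 and 0.236. Scn4b is a low gene here, so its difference rests on few molecules. Over all genes, 4.49% were called higher and 4.25% lower.

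Kv channel genes were called in both directions, and genes for burst and subthreshold currents about as often as all genes. Of 23 Kv genes tested, 3 were higher and 3 lower, beside 4.49% and 4.25% of all genes. Kcnip1, a Kv4 channel partner gene, stood at 60.6, 97.5 and 66.2, against 19.0, 27.1 and 14.3 (log2 1.80 ± 0.11), and Kcnh5, an EAG channel gene, had a log2 fold change of 1.75 ± 0.13. Dpp10, another Kv4 partner gene, stood at 2906, 2166 and 4196, against 1131, 719 and 1806 (log2 1.28 ± 0.14). In the other direction Kcnc2, a Kv3 channel gene of fast-spiking neurons, stood at 109, 153 and 82.6, against 310, 296 and 192 (log2 -1.34 ± 0.13), and Kcnh1 had a log2 fold change of -1.20 ± 0.13. Of 22 genes for burst and subthreshold currents, 1 was higher (Kcnn1, an SK channel gene at a mean of 5.21 CPM) and 1 was lower (Kcnt2, a sodium-activated potassium channel gene, log2 -1.23 ± 0.15), a share near that of all genes. Kcnq5, an M-current gene, and Kcnma1, the BK channel gene, were not called and had log2 differences of -0.12 ± 0.11 and 0.03 ± 0.12.

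Glutamate receptor genes that were called were mostly higher. Of 23 glutamate receptor genes, 7 were higher and 1 lower, beside 4.49% and 4.25% of all genes. Grik1, a kainate receptor subunit gene, stood at 190, 246 and 258, against 23.4, 57.7 and 23.5 (log2 2.77 ± 0.22, edgeR adjusted p = 0.00026). Grm4, a presynaptic group III metabotropic receptor gene, stood at 40.8, 33.7 and 48.9, against 7.57, 6.50 and 5.98 (log2 2.53 ± 0.14). Grm8, of the same group, stood at 758, 747 and 822, against 246, 213 and 334 (log2 1.47 ± 0.14). The classes did not overlap in these 3 genes, which were named for large differences, and the like share of all genes was not counted. Grm2, Grm3 and Grik3 were also higher, with log2 fold changes from 1.20 (Grm3) to 1.51 (Grm2). Grm5 and Grm7, at high level, were not called.

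Among monoamine and acetylcholine receptors, 3 of 21 were higher and 6 lower, beside 4.49% and 4.25% of all genes. Chrm2, the M2 muscarinic receptor gene, stood at 85.8, 68.0 and 181, against 12.4, 10.7 and 23.0 (log2 2.71 ± 0.10, edgeR adjusted p = 1.3e-05). Chrna4, a nicotinic subunit gene, was higher at a low level (mean 6.25 against 1.28). Htr2a, a serotonin receptor gene, stood at 7.33, 10.5 and 20.01, against 14.4, 21.6 and 70.3 (log2 -1.52 ± 0.21), so the 2 classes overlapped between mice while each mouse had less in the selected nuclei. Of 12 GABA-A receptor genes 2 were higher. Gabrg1 stood at 10.8, 10.0 and 36.7, against 3.19, 3.28 and 4.00, and mouse 3 was above the rest. Gabrd, the subunit gene of extrasynaptic receptors, stood at 9.08, 9.48 and 3.18, against 3.40, 2.28 and 0.491.

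**Figure D3:**
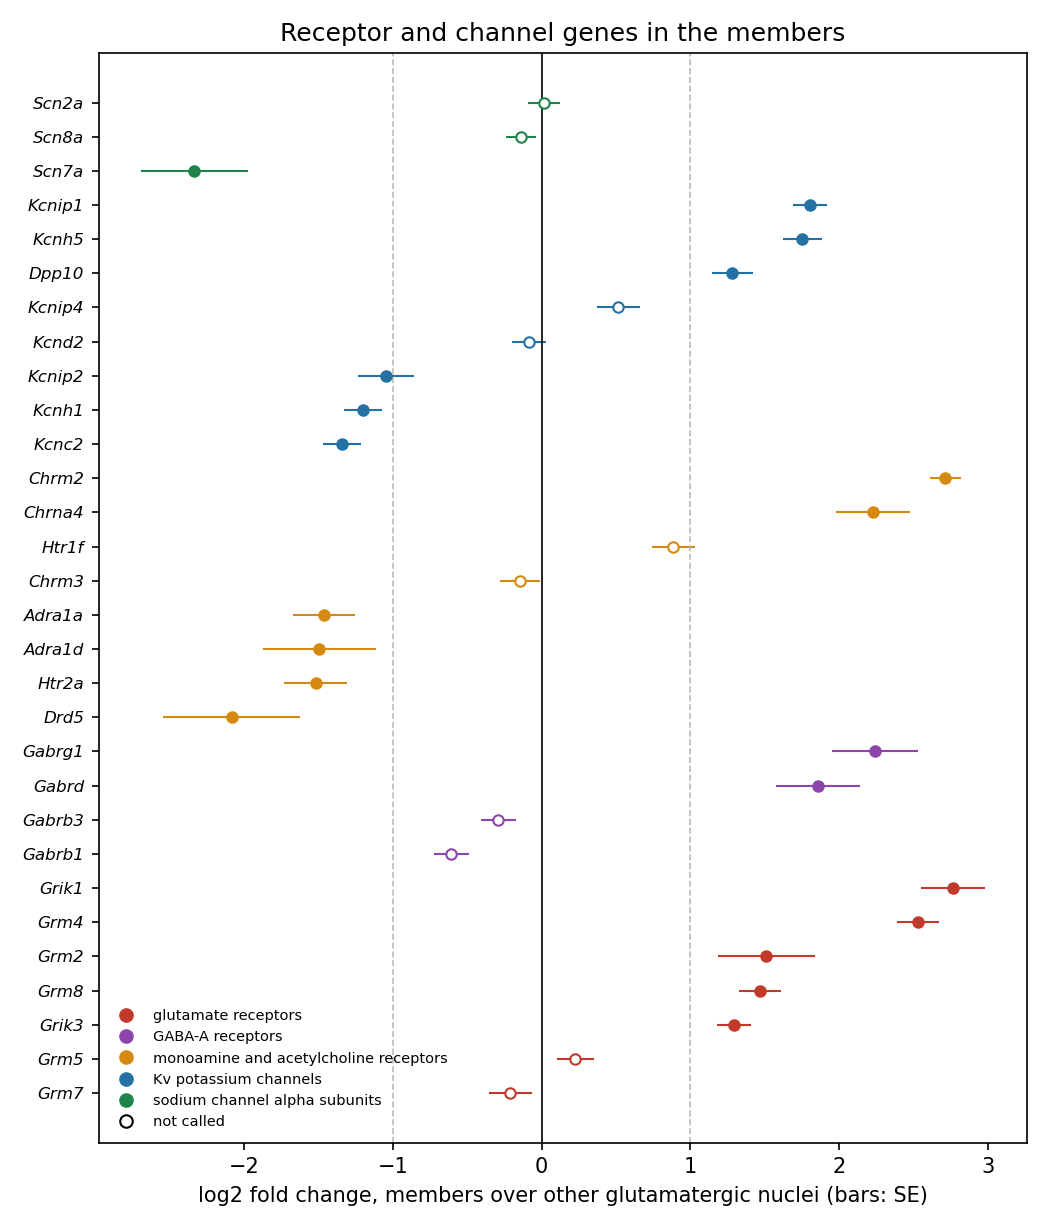
Log2 fold change of named genes from the lists of glutamate, GABA-A, monoamine and acetylcholine receptors, Kv channels and sodium channel alpha subunits in the selected nuclei over the other glutamatergic nuclei, with SE bars from edgeR; filled points are called, open points are not, and dashed lines mark the size needed. Grik1 (2.77), Chrm2 (2.71) and Grm4 (2.53) are the 3 largest among the genes drawn, and Scn8a (-0.14) and Scn2a (0.01) lie at the middle line.

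Neuropeptide signalling genes changed at low levels. Of 25 tested, 5 were higher and 3 lower, beside 4.49% and 4.25% of all genes. Ntsr1, a receptor for the peptide that Nts encodes, stood at 5.79, 1.05 and 4.84, against 0.899, 0.333 and 0.873 (log2 2.37 ± 0.30). Crhr1, the receptor gene for corticotropin-releasing hormone, stood at 30.7, 13.7 and 14.2, against 9.96, 5.72 and 1.91 (log2 1.88 ± 0.26). Adcyap1r1, the PACAP receptor gene, stood at 35.0, 14.8 and 30.0, against 14.9, 7.44 and 4.82 (log2 1.60 ± 0.27). Penk, the enkephalin precursor gene, was lower, at 6.67, 7.38 and 19.9, against 29.5, 13.4 and 69.9 (log2 -1.94 ± 0.19). Within each mouse these genes kept the order given, although levels differed between mice.

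On the list of matrix and fibronectin receptor genes, those called were lower, Fn1 aside. Of 24 tested, 5 were lower and 0 higher, beside 4.25% and 4.49% of all genes. The lower genes include the integrin genes Itga7 and Itgb8. The matrix protease gene Adamts2, higher above, is not on this list. Against CA1 nuclei, 2 of 22 tested were higher and 3 lower, beside 6.38% and 4.18% of all genes there. At edgeR's unadjusted p under 0.05, 6 were higher, and DESeq2 called 0 higher. Col11a1, a fibrillar collagen gene, stood at 29.3, 40.0 and 50.0, against 100, 138 and 239 (log2 -2.08 ± 0.15). Tnc, the tenascin gene, stood at 0, 12.7 and 60.5, against 0.959, 22.0 and 194, so its level differed between mice far more than between classes, and without mouse 3 it was not called. Acan, the aggrecan gene of perineuronal nets, was likewise high in mouse 3 only, at 13.5 against 35.5, and was not called without it. Of 43 axon guidance and adhesion genes, 5 were higher and 5 lower. Cntn5, a contactin gene, stood at 2151, 1180 and 2119, against 524, 324 and 357 (log2 2.05 ± 0.14), and Cntn6 had a log2 fold change of 2.00 ± 0.17. Cdh9, a cadherin gene, stood at 99.3, 129 and 80.8, against 312, 328 and 333 (log2 -1.80 ± 0.16). Sema3e, a secreted guidance gene, stood at 89.5, 170 and 270, against 306, 465 and 900 (log2 -1.77 ± 0.12).

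Activity-regulated genes, which neurons switch on after strong firing, were lower as a list. Of 30 tested, 12 were lower and none was higher, beside 4.25% and 4.49% of all genes. At edgeR's unadjusted p under 0.05, 28 were lower and 0 higher, and DESeq2 called 11 lower and 0 higher. The median log2 fold change was -0.92, beside -0.0048 over all genes. In all 3 mice 22 of 30 genes were lower, and the like share of all genes was not counted. The list was also lower than in CA1 nuclei, which are part of the other glutamatergic nuclei. In that comparison 10 of 30 were lower and none higher, beside 4.18% and 6.38% of all genes. Nptx2, which encodes a secreted pentraxin that gathers AMPA receptors, stood at 23.2, 20.02 and 79.4, against 126, 57.8 and 274 (log2 -2.10 ± 0.16, edgeR adjusted p = 0.00025). Ptgs2, the cyclooxygenase-2 gene, stood at 21.2, 21.6 and 42.5, against 99.2, 45.2 and 176 (log2 -2.03 ± 0.20). Bdnf, the neurotrophin gene, stood at 68.1, 101 and 264, against 240, 197 and 698 (log2 -1.52 ± 0.16). Each of the 3 genes was lower in the selected nuclei of every mouse, and mouse 3 had the highest level in both classes. Inhba had a log2 fold change of -1.71 ± 0.22 and Nr4a3 of -1.50 ± 0.19. Fosb stood at 16.8, 3.16 and 11.6, against 71.0, 3.11 and 24.2, so mouse 2 showed no difference in it. Homer1 was lower by less than the size needed (log2 -0.80 ± 0.11), and Nr4a1 was not called (log2 -0.37 ± 0.16).

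The summed level of the 30 activity-regulated genes was 1863, 1375 and 2918 CPM in the selected nuclei, 3733, 2463 and 6177 in the other glutamatergic nuclei and 3475, 2830 and 6781 in CA1 nuclei. The sums of these classes overlapped between mice, and within each mouse the selected nuclei had the lowest. The Foxp2 nuclei, at 2415, 2110 and 3682 CPM (1 UMI is 70.3 CPM in mouse 2), were also below the other glutamatergic and CA1 nuclei of their mouse. Against the Foxp2 nuclei, 3 of 27 tested genes were lower in the selected nuclei and 0 higher, with a median log2 fold change of -0.37. Of all genes, 5.25% were called in that comparison, in either direction. With Prox1 and Foxp2 limited in the other glutamatergic nuclei too, which removes granule nuclei from them, 10 of the 30 genes were lower. In edgeR without mouse as a block 0 were called and 6 were lower at an unadjusted p under 0.05. Mice without seizures are not analysed here, so these values compare neuron classes of the same mice only. Of 14 tested genes for RNA quality and stress, edgeR and DESeq2 called 0, with 2 lower at edgeR's unadjusted p under 0.05.

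**Figure D4:**
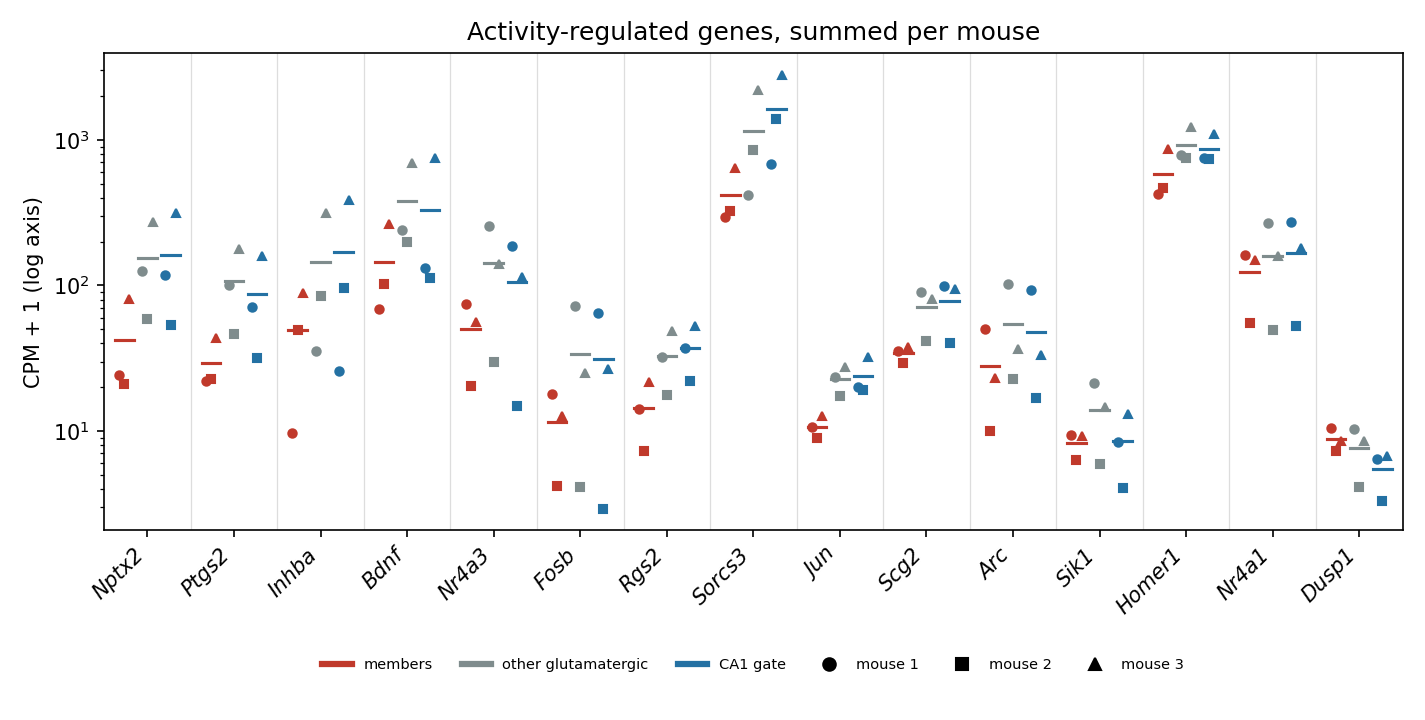
Levels of the 12 activity-regulated genes called lower, and of Homer1, Nr4a1 and Dusp1, on a log axis of CPM + 1; each symbol is 1 mouse and each bar the mean of 3. Within a mouse the selected nuclei (members) lie below the other glutamatergic nuclei for Nptx2, Ptgs2, Inhba, Bdnf and Nr4a3, and mouse 3 has the highest level of Nptx2, Ptgs2, Inhba and Bdnf in both classes.

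The second comparison used CA1, the pyramidal field next to the subiculum. CA1 nuclei were chosen by Fibcd1, Mpped1, Wfs1 and Man1a and numbered 1033, 440 and 544, with median depths of 16622, 6951 and 39429.5 UMIs. The 2 gates overlap, since 306 of the selected nuclei (151, 40 and 115) also passed the CA1 gate and were kept as selected. Of 15394 genes, 982 were called higher, which is 6.38%, and 644 lower, which is 4.18%. Npsr1 was at 1.27, 2.50 and 2.95 CPM in CA1 nuclei (log2 5.03 ± 0.31, edgeR adjusted p = 0.00018). Bmper, which encodes a regulator of bone morphogenetic proteins, stood at 81.7, 60.6 and 86.9, against 2.54, 2.11 and 3.28 (log2 4.68 ± 0.16). Sema5b, a guidance gene, stood at 41.0, 72.2 and 30.4, against 1.48, 5.37 and 0.914 (log2 4.38 ± 0.24). These genes were named for their large differences, and in each the lowest selected value was over 5 times the highest CA1 value.

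Receptor genes that were higher in the first comparison were also higher than in CA1. Chrm2 was at 3.10, 1.73 and 11.0 CPM in CA1 nuclei (log2 4.32 ± 0.23), Grik1 at 13.6, 29.4 and 13.6 (log2 3.57 ± 0.21) and Grik3 at 13.7, 18.2 and 7.15 (log2 3.10 ± 0.27). Of 23 glutamate receptor genes 8 were higher and 1 lower, beside 6.38% and 4.18% of all genes. Tshz3 stood at 12.4, 12.9 and 17.9 in CA1 nuclei (log2 3.66 ± 0.15), and Trhr at 1.63, 1.54 and 1.41 (log2 2.92 ± 0.23). Both comparisons use the selected nuclei, and the CA1 nuclei are part of the other glutamatergic nuclei. Their values thus stand side by side and are not independent. Among lower genes, Adam12, a metalloprotease gene, stood at 12.7, 32.1 and 11.6, against 162, 203 and 81.9 (log2 -3.23 ± 0.20). Epha6, an ephrin receptor gene, was read beside it because of its high level, at 2616, 3265 and 2631, against 6956, 8219 and 6979, and it was chosen after its values were seen. Sorcs3, a sorting receptor gene, stood at 296, 325 and 637, against 681, 1389 and 2803 (log2 -1.97 ± 0.21). Scn8a was at 433, 418 and 454 in CA1 nuclei (log2 -0.27 ± 0.10, edgeR adjusted p = 0.095). Cdh9, lower than in the other glutamatergic nuclei, was not called against CA1 (63.5, 77.5 and 148 there; log2 -0.01 ± 0.32).

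The third comparison used the 65 nuclei chosen by Foxp2, which share Tshz2 and Vwc2l with the selected nuclei. Of 9608 genes, 504 were called, which is 5.25%. Without mouse 1 or mouse 3 the count was 79 and 75, and without mouse 2, which gave 9 Foxp2 nuclei, it was 764. Of the 504, 336 were higher in the selected nuclei, which is 66.7%, and of the 171 that DESeq2 called 80.7% were. The Foxp2 nuclei of mouse 2 held 14217 UMIs in all, so 1 UMI is 70.3 CPM there, against 2.01 and 2.12 CPM in mice 1 and 3, and the values of mouse 2 rest on 0 to 2 UMIs a gene for the genes given next. Cux2 stood at 106, 74.3 and 119, against 10.1, 0 and 0, and the 0 of mouse 2 cannot be told from the level of the selected nuclei. Ndst4, which encodes a heparan sulfate enzyme, stood at 308, 383 and 251, against 8.05, 70.3 and 14.9 (log2 4.57 ± 0.47, edgeR adjusted p = 1.5e-18). In the first comparison Grm8, with a like size beside its SE (log2 1.47 ± 0.14), had an edgeR adjusted p of 0.00056. The small adjusted p values here thus do not mark firmer differences than those of the first comparison. Trpc5, a cation channel gene, stood at 198, 114 and 148, against 26.2, 0 and 2.12. Tle4, a marker of layer 6 corticothalamic neurons, was lower, at 136, 186 and 157, against 537, 141 and 840 (log2 -1.65 ± 0.38), where 141 is 2 UMIs. It was not called by DESeq2, without mouse 1 or without mouse 3. Sulf1, a heparan sulfate sulfatase gene, stood at 26.4, 55.3 and 38.4, against 324, 141 and 219 (log2 -2.74 ± 0.30), and was not called without mouse 1.

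Against every other nucleus of the same library, 2216 of 18415 genes were called, which is 12%, with 742 higher and 1474 lower. The other nuclei hold glia and interneurons, and the part of that mix in the calls was not tested. Among lower genes, Erbb4, a receptor gene on the inhibitory list, stood at 39.7, 179 and 57.9, against 899, 911 and 728 (log2 -3.49 ± 0.36). Slc1a3, an astrocyte glutamate transporter gene, had a log2 fold change of -2.89 ± 0.35. Npsr1 was higher, standing at 7.103, 7.63 and 5.36 in the other nuclei (log2 3.64 ± 0.11). Adamts2, Grm4, Pdzrn3, Sgpp2 and Tox were also higher, with log2 fold changes from 2.34 (Tox) to 3.42 (Sgpp2).

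The selected nuclei were not uniform. A split by Fn1 plus Nts against Tshz2 plus Vwc2l gave 13, 7 and 6 nuclei on the first side, and with at least 10 nuclei needed in a mouse only mouse 1 qualified, so it could not be fitted. A second split was chosen after seeing the data. In mice 1, 2 and 3, 119, 62 and 74 selected nuclei had an Fn1 UMI and no Vwc2l UMI, 280, 157 and 212 had the reverse, 99, 16 and 89 had both and 4, 5 and 1 had neither. The Fn1 side had medians of 18169, 4250 and 42827 UMIs and the Vwc2l side 12917.5, 3600 and 27512. Missing a UMI is partly a matter of depth, and its part in the split was not tested. Values across the split are a description, with no test.

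Of 6396 genes at 20 CPM or more on a side, 25 were at least 4-fold higher on the Fn1 side in all 3 mice and 45 were at least 4-fold higher on the Vwc2l side (with 3 CPM added). On the Fn1 side, Ndst4 stood at 844, 747 and 680, against 73.0, 68.0 and 37.3 on the Vwc2l side. Bcl6, a transcriptional repressor gene, stood at 175, 189 and 183, against 18.0, 16.7 and 20.9. Ntng1, an adhesion gene of the netrin family, stood at 1376, 804 and 1162, against 195, 143 and 128. The repressor and the adhesion gene were higher on the Fn1 side in every mouse. Genes of the split were ranked by their smallest difference over the 3 mice, so this is no separate result. Nts, a gene of the rule that the split did not use, stood at 24.1, 13.9 and 16.1, against 0.651, 2.96 and 0.860, and Etv1 at 593, 410 and 422, against 126, 164 and 43.4. On the Vwc2l side, Gpc6, a glypican gene, stood at 1139, 1059 and 1772, against 28.95, 54.1 and 53.7. Htr2c, a serotonin receptor gene, stood at 274, 308 and 175, against 13.3, 20.1 and 15.2. Kcnk2, a leak potassium channel gene, stood at 121, 160 and 151, against 14.5, 9.28 and 14.5.

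Cell type lists also differed across the split. The layer 6 corticothalamic list had a mean sum of 363 CPM on the Fn1 side and 1211 on the Vwc2l side, the layer 6b list 209 and 673, the layer 2/3 and retrosplenial list 54.4 and 258, and the entorhinal list 1235 and 594. In the same order, the other glutamatergic nuclei had mean sums of 1072, 461, 48.9 and 1178 CPM. The higher side was thus near them for the layer 6 corticothalamic and entorhinal lists, and the other side was low. The CA3 list had 295 and 746, beside 765 in the other glutamatergic nuclei. The split separates several genes of the first comparison. Chrm2 stood at 16.1, 7.73 and 21.8 on the Fn1 side, close to the 12.4, 10.7 and 23.0 of the other glutamatergic nuclei, and at 130, 119 and 308 on the Vwc2l side. Cux2 stood at 29.4, 10.8 and 17.5 on the Fn1 side and at 147, 131 and 188 on the Vwc2l side. Trhr was at 0, 0 and 0.330 on the Fn1 side and at 17.6, 25.6 and 21.1 on the Vwc2l side, and Mef2c was also higher there. Grik3 stood at 20.9, 21.6 and 12.2 on the Fn1 side, below the 48.6, 39.6 and 41.0 of the other glutamatergic nuclei, and at 152, 183 and 167 on the Vwc2l side. Elfn1 and Vat1l had the opposite pattern, with means of 55.3 and 76.1 on the Fn1 side and of 11.0 and 9.92 on the Vwc2l side. Other genes did not follow the split. Npsr1 had means of 89.7 and 101.7, Grik1 of 251 and 261, and Scn8a of 403 and 403 on the 2 sides. The summed activity-regulated genes were 1756, 1268 and 2824 CPM on the Fn1 side and 1931, 1456 and 3407 on the Vwc2l side, below the other glutamatergic nuclei of the same mouse on both sides.

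**Figure D5:**
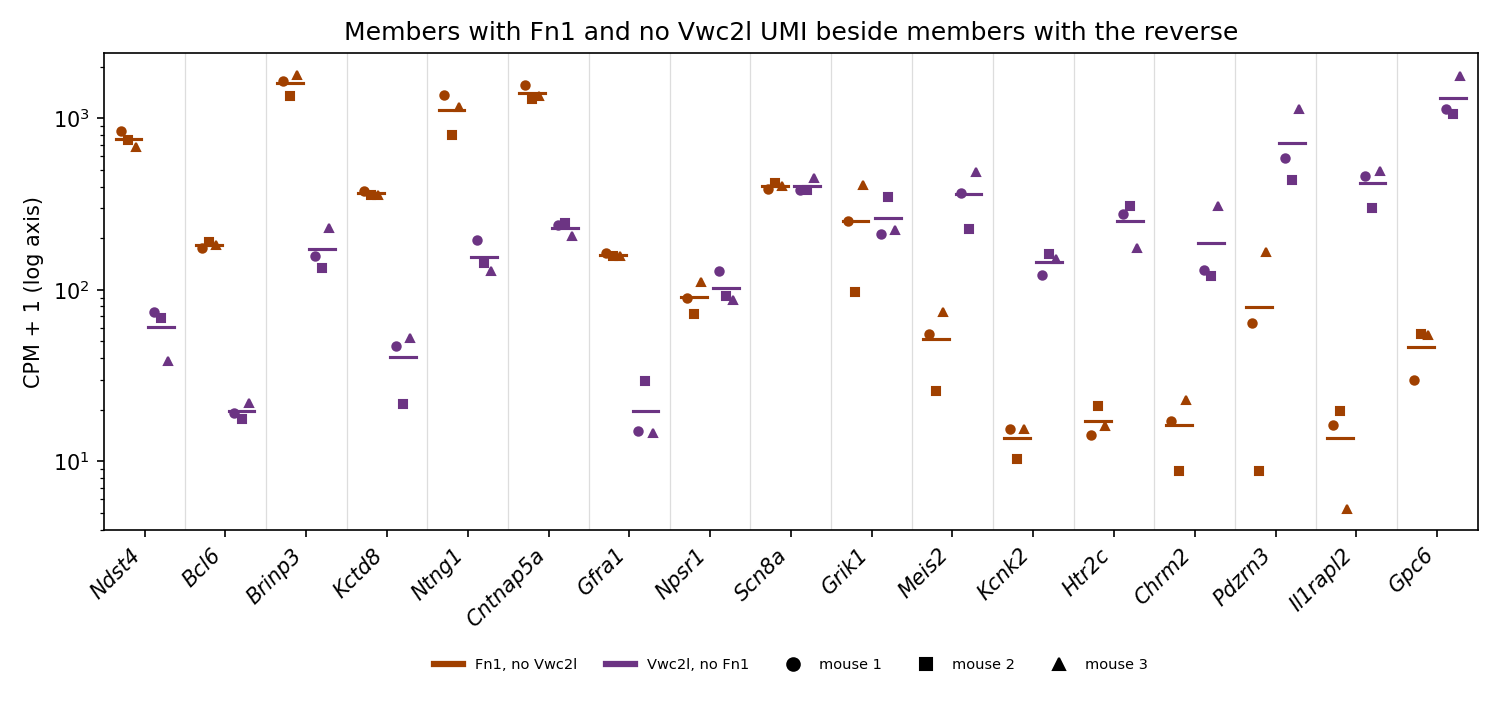
Levels of 17 genes on a log axis of CPM + 1 in the selected nuclei with an Fn1 and no Vwc2l UMI and in those with the reverse; each symbol is 1 mouse and each bar the mean of 3. Ndst4, Bcl6 and Ntng1 are high on the Fn1 side and Gpc6, Htr2c and Chrm2 on the Vwc2l side in every mouse, while Npsr1, Scn8a and Grik1 lie at like levels on both.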

How the data were processed

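Nuclear RNA of sorted hippocampal nuclei was profiled with the 10x 3' assay. The authors deposited raw UMI counts per gene and nucleus, made with Cell Ranger 7.0.0 (mice 1 and 2) and 7.1.0 (mouse 3), per the file headers, with mm10 as the build in the submitters' processing notes. The sources used here do not say if intronic reads entered the counts. Total UMIs were 100230288, 50931257 and 140527761.

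The selected nuclei and the gene lists were chosen with earlier results of these data known. Counts were summed per mouse and class, filtered with filterByExpr, scaled with TMM and fitted with edgeR 4.0.16 (R 4.3.3) with mouse as a block, because both sums come from 1 animal. For the other glutamatergic nuclei, the paired deviations had correlations of 0.539, 0.395 and 0.623. CPM are UMIs per 1000000 UMIs of the class. p-values weigh a difference against the spread over these 3 libraries, which edgeR estimates partly from all genes. The weight of all genes in that estimate was not read out, and adjusted p values of the Foxp2 comparison are not on the scale of the first comparison. Alternatives were DESeq2 1.42.0, no filter, no block, each mouse left out, other rule settings, thinning to 1000 UMIs and doublets left out (Scrublet in scanpy 1.11.5, with a rate of 0.8% per 1000 nuclei in mouse 2, where its own threshold called 0).

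Other glutamatergic nuclei had at least 500 genes, a UMI of Slc17a7 or Slc17a6, at most 1 per 10000 of Gad1 plus Gad2 and at most 10 per 10000 of a glial list. CA1 nuclei also had at least 2 of 4 CA1 genes detected, these summing to 5 or more per 10000, and Prox1 and Foxp2 at most 1 each. Foxp2 nuclei had Foxp2 at 5 or more and Prox1 at most 1. Oligodendrocytes had at least 3 of 5 list genes detected, these summing to 50 or more. Named genes were Scn8a, the 12 largest called differences in each direction with at least 20 CPM and 1 direction in all mice, and from each list up to 6 called and 2 uncalled genes; further names were chosen after values were seen, and a few genes under the rule are not reported here. Gene positions and names follow GENCODE M21 and the files, and promoters come from RefSeq (5 of 6 genes looked up had an entry).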

Additional observations from a re-analysis of the deposited data

How the results depend on the processing

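The counts of called genes kept within 1.5 times of the reported value under most settings, and the exceptions follow, with the cause not tested unless given. Without the replicate block, which ignores that both sums come from the same mouse, the counts were 394 (other glutamatergic nuclei), 843 (all other nuclei), 665 (CA1) and 256 (Foxp2 nuclei), and the activity-regulated genes called lower fell from 12 to 0 and, against CA1, from 10 to 0 (edgeR; 6 were lower at an unadjusted p under 0.05 in each). Thinned to 1000 UMIs, where fewer molecules are left, the counts were 495, 1125, 550 and 72, and 6 activity-regulated genes were lower than in CA1. With at least 3 rule genes required, 20 activity-regulated genes were lower and the mean share of selected nuclei was 1.43%. Against the Foxp2 nuclei DESeq2 called 171 genes. With 1 mouse left out, the counts ran from 1109 to 1465, from 1815 to 2244, from 1173 to 1639 and from 75 to 764, and the activity-regulated counts from 11 to 15 and, against CA1, from 7 to 13. Of the calls against the other glutamatergic nuclei, 51.4% were higher, and 61.4% without the block. Of 86 named calls against the other glutamatergic nuclei, 82 were called by DESeq2, 41 without the replicate block, 62 after thinning (17 not tested), 74 with at least 3 rule genes (Dpp10, Kcnh5, Grik3, Grm3, Gabrg1 and Mef2c among those lost), and 78, 85 and 78 without mouse 1, 2 and 3; without mouse 1 Sik1, Kcnip2, Itgb8, Drd5, Adra1d, Pdyn, Cckbr and Adcyap1 were lost, without mouse 2 Pdyn, and without mouse 3 Mef2c, Grm2, Sorcs3, Acan, Tnc, Drd5, Adra1d and Adcyap1. Directions changed in 3 cases: Scn8a, never called, had 0.0905 after thinning, Gabrg1 had -0.10 with at least 3 rule genes, and Mog had -0.0899 with the glial limit on the selected nuclei. Alternatives that left out selected nuclei in the CA1 gate (1480, 2142, 1600 and 410 calls) or set the same Prox1 and Foxp2 limits (1572) were chosen after seeing the data. The alternatives of the Fn1 plus Nts split were not run, since it could not be fitted. Depth was lowest in mouse 2, where 1 UMI is 0.527 CPM in the selected nuclei, 1.55 CPM on the Fn1 side and 70.3 CPM in the Foxp2 nuclei.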
